A study of Mus musculus with 120 samples.

Results

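The cerebral cortex of 26-week-old 175QK772T mice was compared with that of WT mice, in 7 of the 120 brain libraries of the series. The 7 are the libraries that the labels give as cortex at 26 weeks and as 175QK772T (4 libraries, 2 from females and 2 from males) or WT (3 libraries, replicates 2 to 4, 1 from a female and 2 from males). Both groups are C57BL/6J. The 175QK772T mice are heterozygous knock-ins in which 1 Atxn1 allele carries an expanded CAG repeat together with K772T, an amino acid change that the title of the series ties to less nuclear ataxin-1, while the other allele keeps the normal mouse repeat. The sample descriptions give the line a different repeat length from the genotype field, and the name in the genotype field is used. Heterozygous 175Q mice of the same age, with the expanded repeat and no K772T change (4 libraries, 2 from females and 2 from males), were set beside these groups where named. The mutant allele is in the germline, so every cell of these mice carries it.

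Ataxin-1 is a nuclear protein, and expansion of its polyglutamine tract causes spinocerebellar ataxia type 1, an inherited disease known best for its damage to the cerebellum and brainstem. It binds the transcriptional repressor capicua and other regulators of transcription. The protein is also made in the cortex, in projection neurons and in other cells, and knock-in mice with the expanded repeat have deficits of learning and memory besides those of movement.

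Polyadenylated RNA of the whole tissue was sequenced, and the deposited values are counts of read pairs per gene. Libraries held 28030190 to 46169391 counts in 175QK772T and 47937759 to 55458350 in WT, so each 175QK772T library was shallower than each WT library. The region label was checked against markers of the cortex and of neighbouring regions, with the libraries of the 3 regions scaled together. Markers of the upper cortical layers summed to 692 to 749.5 CPM in the 175QK772T cortex and 1047 to 1238 CPM in the WT cortex. In striatum they summed to 501 to 594 CPM in 175QK772T and 563 to 758 CPM in WT. The WT striatum thus covered the range of the 175QK772T cortex. In hippocampus they summed to 362 to 429 CPM and 430 to 508 CPM. Striatal markers summed to 148 to 176 CPM in the 175QK772T cortex and 207 to 270.4 CPM in the WT cortex, against 1229 to 2074 CPM and 4163 to 6588 CPM in the striatum of the same genotypes, and hippocampal markers to 34.7 to 40.6 CPM and 50.6 to 62.2 CPM in cortex, against 199.9 to 243 CPM and 416 to 521 CPM in hippocampus. WT replicate 1, left out as stated, stood apart from the other 11 libraries of the 26-week cortex, with a Pearson correlation of 0.954 to 0.961 with them, against at least 0.97 among them. Its 12 hindbrain markers summed to 601 CPM (counts scaled to library size with TMM factors), against 10.8 CPM at most in the 7 libraries, and its myelin genes to 15640 CPM, against 6758 CPM at most. Counts and calls with that library kept are given beside those they change, and medians of lists are given without it unless stated.

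Across all genes, 4641 of 20239 genes tested (22.9%) differed between 175QK772T and WT in edgeR's quasi-likelihood test at an adjusted p below 0.05. Of them 2025 rose (10%) and 2616 fell (12.9%), and 621 changed at least 2-fold, 254 up and 367 down. The values of the 4 and the 3 libraries did not overlap in 5785 genes (28.6%). With WT replicate 1 kept the count was 1756 (8.83%, 4% higher and 4.83% lower), of which 1747 were called in the same direction without it. In what follows a value in brackets is the log2 fold change ± SE of 175QK772T over WT, a gene rose or fell where it passed this test, and each adjusted p is from this test. The median log2 fold change of all genes tested was 0.0057. Counts of called members in the lists below stand beside 22.9% of all genes, 10% higher and 12.9% lower, or 8.83% with WT replicate 1 kept.

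Atxn1 itself, on chromosome 13 (chr13:45549755-45965008, minus strand, GRCm38), is present as 2 alleles in both genotypes, and the counts do not tell them apart. It had 117, 122, 134 and 129 CPM in the 175QK772T libraries, against 118, 106 and 107 CPM in the WT libraries. The 2 groups overlapped, since the lowest 175QK772T value lay below the highest WT value. The difference was small but passed (0.18 ± 0.06, adjusted p = 0.0373 in edgeR's test), and the call was lost without 175QK772T replicate 3 or 4, without WT replicate 3 or 4, and with WT replicate 1 kept (adjusted p = 0.211). The same contrast gave Atxn1 0.20 ± 0.04 in cortex at 10 weeks, and 0.31 ± 0.07 in hippocampus and -0.02 ± 0.08 in striatum at 26 weeks. The first 2 passed (adjusted p = 0.000411 and 0.00488 in edgeR's test) and the last did not. Of the 13 tested genes that encode known partners of ataxin-1, 1 rose and 3 fell (1 each with WT replicate 1 kept). The calls without that library were 30.8% of the list, beside 22.9% of all genes. Nlk, a kinase that phosphorylates ataxin-1 among other proteins, fell (-0.65 ± 0.05). Hdac3, a histone deacetylase, rose (0.22 ± 0.05). The Nlk call ended with WT replicate 1 kept (adjusted p = 0.18).

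Capicua represses genes of the receptor tyrosine kinase and ERK pathway, among them ETS factors and feedback inhibitors such as the dual-specificity phosphatases, Sprouty and Spred proteins. Of 14 genes listed as capicua targets, 8 fell and none rose, with a median log2 fold change of -0.29, and 1 fell with WT replicate 1 kept (median -0.17). The ETS factor gene Etv1 had 62.3, 66.1, 72.9 and 68.7 CPM in the 175QK772T libraries, against 126, 108 and 101 CPM in the WT libraries. Its groups did not overlap, and it fell (-0.71 ± 0.06, adjusted p = 2.91e-07 in edgeR's test), with or without WT replicate 1. Etv1 also marks layer 5 neurons, where it stands in a second list. Etv5 fell (-0.53 ± 0.09) and so did Spred1 (-0.40 ± 0.05), both without a call when WT replicate 1 was kept.

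Capicua binds the octamer TGAATGAA and its variants TGAATGGA, TCAATGAA and TCAATGGA, and these 4 were searched on both strands in RefSeq promoters of GRCm38.p6, from 250 bases before to 50 bases after each gene's start. A promoter was held for 8 of the 14 genes, and 3 of the 8 (37.5%) had a match, against 3.84% of all 32851 promoters and 2.54% of those of the genes tested. The sites are shown to let the values of Dusp6, Spry2 and Spred3 be read beside their sequence, 30 bases on the gene's strand, with the octamer or its reverse complement in capitals. They lie at chr10:99263196-99263225 and chr10:99263221-99263250 (plus strand, Dusp6), chr14:105896855-105896884 (minus strand, Spry2) and chr7:29168639-29168668 (minus strand, Spred3).
Dusp6, first site: gagagaatgtaTCCATTGAgacgctggctg
Dusp6, second site: ggctgtttgtaTCCATTGAggagctgcctc
Spry2: tcggcctcttgTTCATTGAgaaaaaaaaaa
Spred3: cttgatttttgTGAATGAAatgctccttgt

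Dusp6, the ERK phosphatase whose promoter holds both sites, had 53.4, 58.8, 43.9 and 38.8 CPM in the 175QK772T libraries, against 74.05, 64.1 and 76.97 CPM in the WT libraries. Every 175QK772T library was below every WT library, and Dusp6 fell (-0.60 ± 0.11, adjusted p = 0.000466 in edgeR's test). Spry2, a Sprouty inhibitor of the same pathway, also fell (-0.33 ± 0.07), with 38.3, 40.1, 31.8 and 31.2 CPM in the 175QK772T libraries, against 42.9, 41.1 and 45.4 CPM in the WT libraries. Spred3, a related inhibitor, did not pass (0.08 ± 0.07, adjusted p = 0.496 in edgeR's test). The 3 genes were picked for their sites, after their values were seen, and the calls of Dusp6 and Spry2 ended with WT replicate 1 kept (adjusted p = 0.457 and 0.396). A match is only a match of letters.

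The largest rises were in genes of developmental transcription factors, most of them silent or nearly so in the WT cortex. Among the 12 genes of largest log2 fold change that reached a mean of 1 CPM without overlap of the groups, all 12 encode homeodomain or paired-domain factors. These genes passed the filter on low counts through the mutant libraries alone, so their number is a description. Barx1, a homeobox factor known from stomach and tooth development, lies at chr13:48662998-48666507 (plus strand), on the same chromosome as Atxn1 and within 10 Mb of it. It had 12.6, 11.7, 8.42 and 10.02 CPM in the 175QK772T libraries, against 0 counts in each of the 3 WT libraries. With 1624 counts over the 175QK772T group it was at least 520.4-fold higher, taken against the 3 counts over the WT group that a count of 0 allows. It was also at 0 in WT replicate 1.

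Vax2, a homeobox factor of the ventral eye, had 2.41, 2.13, 0.747 and 1.72 CPM in the 175QK772T libraries and 0 in all WT libraries, WT replicate 1 included, and was at least 84.6-fold higher. Lbx1, which specifies dorsal spinal interneurons, was at least 147-fold higher, with 460 counts over the 175QK772T group and 0 over WT. Shox2, a short stature homeobox factor, had 1738 counts over the 175QK772T group and 3 over WT, a ratio of 557 with an exact 95% interval of 190.3 to 2704. Lhx1, a LIM homeobox factor, had 399 counts against 1, a ratio of 384 with an interval of 68.5 to 15189. The calls of Lbx1, Shox2 and Lhx1 ended with WT replicate 1 kept. Such intervals and floors cover counting error only.

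Pou4f1, a POU factor of sensory neurons, the retina and the habenula, had 11.4, 12.2, 9.22 and 10.8 CPM in the 175QK772T libraries, against 0.0574, 0.0407 and 0.0218 CPM in the WT libraries. It rose (7.94 ± 0.20, adjusted p = 2.91e-14 in edgeR's test). Pax2, a paired-box factor of the midbrain-hindbrain boundary, had 11.4, 11.3, 9.22 and 10.1 CPM in the 175QK772T libraries, against 0.0957, 0.346 and 0.327 CPM in the WT libraries, and rose (5.34 ± 0.19). In both genes the lowest 175QK772T value was far above the highest WT value. WT replicate 1 held 14.2 CPM of Pou4f1 and 17.9 CPM of Pax2, and with it kept neither passed (adjusted p = 0.28 and 0.344). Among the 4 Pax genes tested all 4 rose (2 were called without WT replicate 2 and 1 with WT replicate 1 kept), and Pax1, low in every WT library including replicate 1, kept its call with that library (4.38 ± 0.27).

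**Figure D1:**
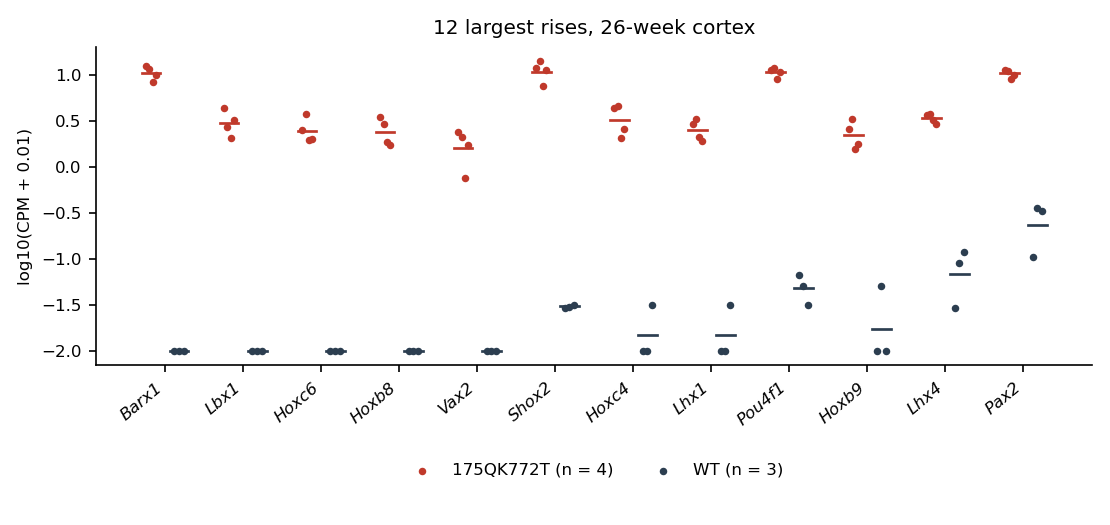
The 12 genes of largest rise, with CPM on a log10 axis after adding 0.01 CPM, for the 4 175QK772T libraries (left of each pair) and the 3 WT libraries (right). Each point is a library, and no 175QK772T point of these genes lies at or below a WT point, which follows from the rule that chose them.

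Tal1, a basic helix-loop-helix factor of blood formation and of some midbrain and hindbrain GABAergic neurons, had the smallest p of all genes tested, and was named after its values were seen. It had 33.3, 39.5, 29.3 and 34.9 CPM in the 175QK772T libraries, against 2.01, 2.38 and 2.22 CPM in the WT libraries, and rose by 3.94 ± 0.09 on the log2 scale with an adjusted p of 1.74e-14 in edgeR's test. WT replicate 1 had 4.04 CPM, and the call stayed with it kept (3.71 ± 0.16). Onecut2, a homeobox factor of the cut family, had 70.03, 93.9, 85.2 and 77.5 CPM in the 175QK772T libraries, against 6.76, 8.81 and 9.89 CPM in the WT libraries, and rose (3.26 ± 0.12), with or without WT replicate 1. Seen over families, which were chosen after the leading genes were known, 25 of 69 homeobox genes outside the Hox clusters rose and 6 fell, 6 of 28 Forkhead genes rose and 4 fell, and 3 of 13 T-box genes rose and 2 fell. Beside 22.9% of all genes, the calls made up 44.9%, 35.7% and 38.5% of the genes of these families. Part of these genes, Barx1, Vax2, Lbx1, Shox2 and Lhx1 among them, passed the filter through the mutant libraries and prompted the choice of family, so the counts carry no test. Keeping WT replicate 1, 9 of the 69 homeobox genes rose and 1 fell, 6 Forkhead genes rose and 2 T-box genes rose, and no Forkhead or T-box gene fell.

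Hox genes, which give cells their position along the body axis and are off in the forebrain, were called in 23 of the 24 that passed the filter, all higher, and 15 of 39 did not pass the filter. The filter let them in through the mutant groups, so the count carries no test, and in a fit of the 7 libraries alone 14 Hox genes were called. Their summed level was 24.1, 27.6, 15.2 and 19.02 CPM in the 175QK772T libraries, against 0.230, 0.387 and 0.240 CPM in the WT libraries. Hoxc4 had 521 counts over 175QK772T and 1 over WT, a ratio of 501 with an interval of 89.5 to 19822. Hoxb8 and Hoxc6 had no count in WT and were at least 119.9-fold and at least 129-fold higher, and Hoxb9, with 2 counts in WT, had a ratio of 173 with an interval of 47.4 to 1430.5.

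Hindbrain tissue also expresses Hox genes, so the 12 hindbrain markers are given beside them. All 10 that were tested rose (6 in the fit of the 7 libraries), 9 of them Hox genes, and their sum was 8.76, 10.8, 5.00 and 6.71 CPM in 175QK772T, against 0.134, 0.326 and 0.0871 CPM in WT. Slc6a5, the glycine transporter of hindbrain and spinal inhibitory neurons and the 1 tested member outside the Hox clusters, had 1.67, 3.00, 0.824 and 1.49 CPM in the 175QK772T libraries, against 0.0957, 0.265 and 0.0218 CPM in the WT libraries (3.64 ± 0.44). In WT replicate 1, Slc6a5 stood at 407 CPM beside a Hox sum of 248 CPM. In the 175QK772T libraries Slc6a5 was below the Hox sum in each library, and in WT replicate 1 it was above it. With WT replicate 1 kept, 6 of 23 Hox genes rose (Hoxc4, Hoxb8 and Hoxc6 not among them), none of the 10 hindbrain markers did, and the sign of Slc6a5 turned. A part of hindbrain RNA in the Hox rise was not tested.

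Hox genes were also called higher in 175QK772T in other sets of libraries. Of the 24 tested in the 26-week cortex, all 24 were also tested in the hippocampus of the same mice. In the striatum 13 of them were, and in the 10-week cortex 4. All of these were higher, where 9.1%, 10.9% and 11.8% of all genes were. The other listed Hox genes were not counted in hippocampus or striatum. A gene silent in WT passes the filter only where the mutant libraries are high, so these counts too are a description and carry no test. Of the 28 tested genes of the Polycomb repressors, which keep Hox and other developmental genes silent, 9 rose and 2 fell (5 rose and none fell with WT replicate 1 kept), with a median log2 fold change of 0.09. Cbx8, a chromobox subunit of Polycomb complex 1, had 17.99, 17.03, 14.1 and 15.9 CPM in the 175QK772T libraries, against 10.1, 9.30 and 10.3 CPM in the WT libraries, and rose (0.69 ± 0.09) with or without WT replicate 1. Mtf2, an accessory subunit of Polycomb complex 2, fell (-0.29 ± 0.05), a call that ended with WT replicate 1 kept.

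Among the 12 largest falls the first was that of Fst, which encodes follistatin, a secreted inhibitor of activins. It had 0.319, 0.391, 0.258 and 0.249 CPM in the 175QK772T libraries, against 4.17, 2.81 and 4.36 CPM in the WT libraries (-3.64 ± 0.33, adjusted p = 2.47e-07 in edgeR's test). Ankrd63, an ankyrin repeat gene, had 2.94, 2.83, 2.76 and 3.48 CPM in the 175QK772T libraries, against 18.5, 19.4 and 16.5 CPM in the WT libraries (-2.61 ± 0.12). Adam33, a membrane metalloprotease, had 3.97, 5.48, 3.84 and 4.75 CPM in the 175QK772T libraries, against 26.2, 24.6 and 26.9 CPM in the WT libraries (-2.55 ± 0.17). In all 3 genes the 175QK772T values lay well below the WT values, with no overlap.

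The others in order of size were H2-Bl, a class I histocompatibility gene (-3.33 ± 0.41), Dgat2l6, an acyltransferase (-3.26 ± 0.41), Arr3, cone arrestin (-3.10 ± 0.33), and Alox12b, a lipoxygenase (-3.10 ± 0.17). They were followed by Cd6, a lymphocyte receptor (-2.96 ± 0.23), Tnfrsf8, a member of the TNF receptor family (-2.89 ± 0.43), Myh2, a myosin heavy chain (-2.88 ± 0.31), Olfr78, an olfactory-type receptor (-2.78 ± 0.27), and Slc23a3, of the nucleobase and ascorbate transporter family (-2.64 ± 0.34). Alox12b stood at 0.639, 0.609, 0.876 and 1.09 CPM in the 175QK772T libraries, against 8.16, 6.61 and 6.49 CPM in the WT libraries. All 12 kept their call with WT replicate 1 kept and without any 1 of the 7 libraries. H2-Bl belongs to a family of near-identical copies, so its counts are uncertain.

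**Figure D2:**
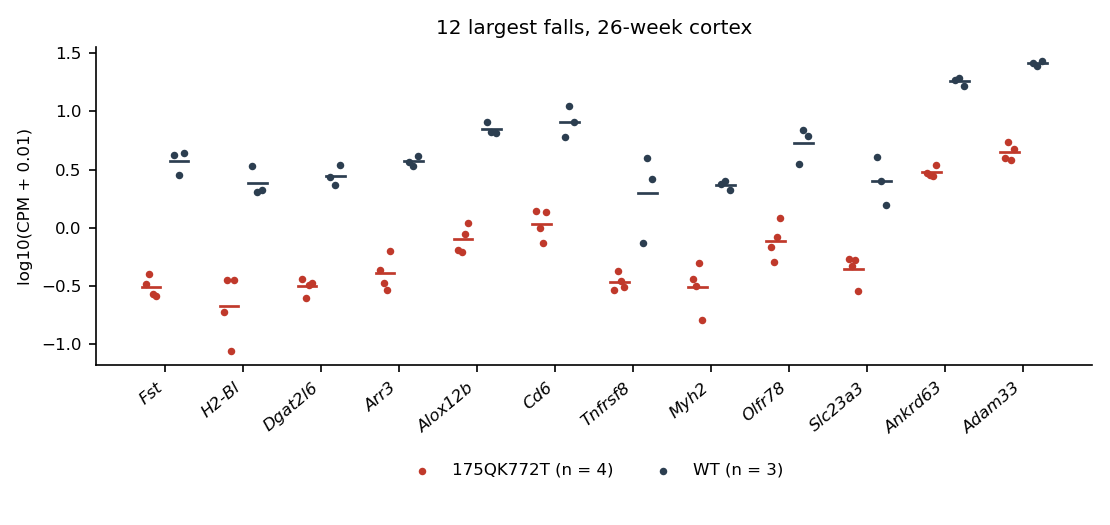
The 12 genes of largest fall, with CPM on a log10 axis after adding 0.01 CPM, for the 4 175QK772T libraries (left of each pair) and the 3 WT libraries (right). Each point is a library, and the 175QK772T points of Fst lie between 0.249 and 0.391 CPM, below the WT points at 2.81 to 4.36 CPM.

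Genes that mark the projection neurons of the cortex were lower in 175QK772T in each of the layer lists. Of 12 upper layer (2 to 4) markers 10 fell and none rose (8 with WT replicate 1 kept), with a median log2 fold change of -0.51. Of 12 layer 5 markers 10 fell and none rose (6 with it kept), with a median of -0.43, and of 12 layer 6 markers 5 fell and 1 rose (1 each with it kept), with a median of -0.31. Whether the layers differed from each other was not tested. In bulk tissue, fewer cells of a type and less RNA per cell cannot be told apart.

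Lamp5, a membrane protein of upper layer neurons and of a class of interneurons, had 99.4, 105, 92.8 and 104 CPM in the 175QK772T libraries, against 304, 263 and 299.7 CPM in the WT libraries. No WT value came near the 175QK772T values, which lay close together, and Lamp5 fell (-1.52 ± 0.06, adjusted p = 1.69e-11 in edgeR's test). Stard8, a GTPase-activating protein, fell (-1.18 ± 0.07), as did Rspo1, a Wnt pathway agonist (-1.93 ± 0.13). In layer 5 the fall was seen in Npr3, the natriuretic peptide clearance receptor (-0.65 ± 0.09), and Sulf2, an extracellular sulfatase (-0.44 ± 0.06).

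In layer 6, Cplx3, a complexin of subplate-derived neurons, had 10.3, 9.37, 7.55 and 8.23 CPM in the 175QK772T libraries, against 20.5, 21.1 and 22.4 CPM in the WT libraries, and fell (-1.30 ± 0.11). Tbr1, the T-box factor that specifies corticothalamic neurons, fell as well (-0.44 ± 0.05), as did Ccn2, a matricellular protein of the deepest layer (-0.86 ± 0.10). Ntsr1, the neurotensin receptor that marks corticothalamic neurons, was the member that rose (0.82 ± 0.12, adjusted p = 4.44e-05 in edgeR's test), with 14.7, 14.03, 15.2 and 17.2 CPM in the 175QK772T libraries, against 9.34, 8.93 and 7.71 CPM in the WT libraries. Its groups did not overlap, and the call stayed with WT replicate 1 kept, while those of Cplx3 and Tbr1 ended.

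Among 10 genes shared by excitatory neurons 8 fell and none rose (median -0.44), and none was called with WT replicate 1 kept (median -0.16). That library held 1982 CPM of the 10 genes in sum, against 4816 to 5130.0 CPM in 175QK772T and 7263 to 7809 CPM in the other WT libraries. Camk2a, the calcium/calmodulin kinase of synaptic plasticity, had 2091, 2026, 1981 and 2026 CPM in the 175QK772T libraries, against 3461, 4116 and 3852 CPM in the WT libraries (-0.92 ± 0.04, adjusted p = 9.28e-11 in edgeR's test). Camk2n1, an inhibitor of that kinase named after its values were seen, had 882, 938, 836 and 897 CPM in the 175QK772T libraries, against 2053, 2148 and 2259 CPM in the WT libraries (-1.29 ± 0.04). Both were lower in every 175QK772T library than in any WT library. With WT replicate 1 kept, Camk2n1 was not called either. The vesicular glutamate transporter gene Slc17a7 fell less (-0.46 ± 0.05).

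**Figure D3:**
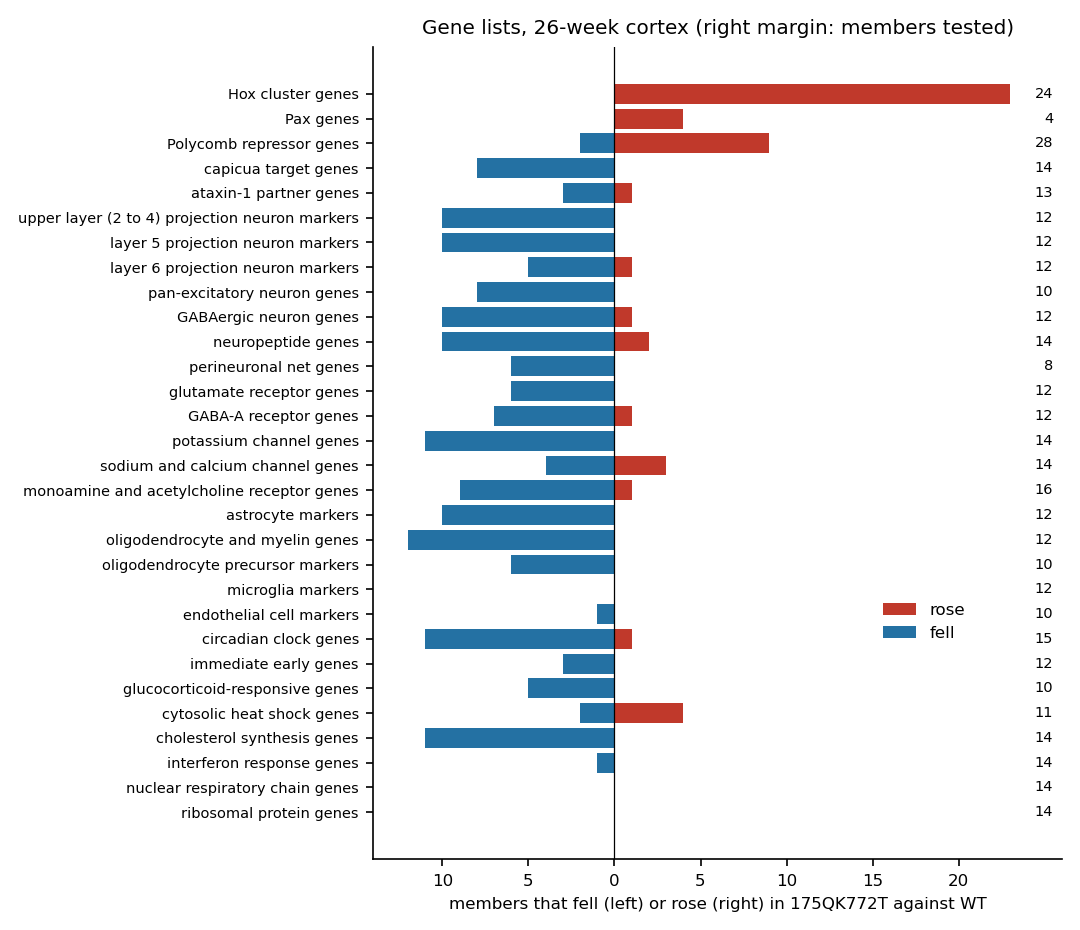
For each of 30 gene lists, the number of members that fell (bars to the left) and rose (bars to the right) in 175QK772T against WT, with the number of members tested at the right margin. All 12 oligodendrocyte and myelin genes and 10 of 12 upper layer, layer 5 and astrocyte genes fell, and no microglia marker was called.

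Genes of GABAergic interneurons were lower too. Of 12, 10 fell and 1 rose, with a median of -0.47, and 4 fell with WT replicate 1 kept. Gad1, the enzyme that makes most GABA, had 254, 247, 243 and 251 CPM in the 175QK772T libraries, against 407, 359 and 371 CPM in the WT libraries, without overlap (-0.61 ± 0.05, adjusted p = 4.23e-08 in edgeR's test), and kept its call with WT replicate 1. Npy (-1.11 ± 0.09) and Vip (-0.92 ± 0.08), peptides of interneuron classes, fell, calls that ended with it kept. Dlx1, a homeobox factor of interneurons, was the 1 that rose (0.42 ± 0.07), and its call ended too.

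Of 14 neuropeptide genes 10 fell and 2 rose, with a median of -0.67, and 5 fell with WT replicate 1 kept. Penk, the enkephalin precursor, had 14.1, 14.6, 12.4 and 13.6 CPM in the 175QK772T libraries, against 32.8, 42.7 and 35.7 CPM in the WT libraries (-1.46 ± 0.07). Pdyn, the dynorphin precursor, had 8.55, 7.50, 7.73 and 8.30 CPM in the 175QK772T libraries, against 26.6, 19.3 and 20.4 CPM in the WT libraries (-1.46 ± 0.12, adjusted p = 7.83e-08 in edgeR's test). Neither gene's groups overlapped, and both kept their call with WT replicate 1. The risers were Nts, neurotensin, at 0.674, 0.935, 0.644 and 0.646 CPM in the 175QK772T libraries, against 0.383, 0.346 and 0.174 CPM in the WT libraries (1.21 ± 0.32), and Adcyap1, the PACAP precursor (0.30 ± 0.09). When WT replicate 1 was kept Nts turned in sign (-0.76 ± 0.83), and Adcyap1 was not called, nor was it when any 1 of 5 of the 7 libraries was left out.

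Of 8 genes of the perineuronal net, the matrix around fast-spiking interneurons, 6 fell and none rose. Hapln4, a link protein of that net, had 101, 96.7, 99.6 and 96.4 CPM in the 175QK772T libraries, against 176, 153 and 174 CPM in the WT libraries (-0.76 ± 0.05). Hapln1 (-0.74 ± 0.08) and Ncan, the proteoglycan neurocan (-0.39 ± 0.05), fell by similar or smaller amounts. When WT replicate 1 was kept 2 of the 8 fell, Ncan not among them.

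Receptors and channels gave a mixed picture, with falls the more frequent. Of 14 potassium channel genes 11 fell and none rose (median -0.40, and 3 with WT replicate 1 kept), among them the ether-a-go-go type channels Kcnh7 (-0.59 ± 0.06) and Kcnh3 (-0.64 ± 0.06). Of 14 sodium and calcium channel genes 4 fell and 3 rose (2 each with it kept). Scn4b, a sodium channel beta subunit linked to resurgent current, had the largest change among channel genes named, with 35.4, 32.7, 29.8 and 29.3 CPM in the 175QK772T libraries, against 117, 128 and 132 CPM in the WT libraries (-2.00 ± 0.08, adjusted p = 6.87e-12 in edgeR's test). The WT values lay far above all 4 values of 175QK772T. The risers were the alpha subunit genes Scn3a (0.52 ± 0.06), Scn2a (0.22 ± 0.04) and Cacna1b (0.30 ± 0.05). The calls of Kcnh7, Kcnh3 and Scn2a ended with WT replicate 1 kept.

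Of 12 glutamate receptor genes 6 fell and none rose (1 with WT replicate 1 kept). Grm2, a presynaptic metabotropic receptor, had 31.5, 26.7, 28.5 and 28.1 CPM in the 175QK772T libraries, against 56.7, 63.4 and 63.3 CPM in the WT libraries (-1.10 ± 0.08), and the NMDA receptor subunit gene Grin2a fell (-0.74 ± 0.07), as did Gria3 of the AMPA receptors (-0.48 ± 0.05). Of 12 GABA-A receptor genes 7 fell and 1 rose (2 fell and none rose with it kept). The number of calls, 8, was 4 without 175QK772T replicate 1 or 4 or with no sex term, and 5 without WT replicate 2 or 3. Gabrd, the delta subunit of extrasynaptic receptors, had 37.4, 35.8, 32.7 and 33.3 CPM in the 175QK772T libraries, against 72.02, 76.7 and 83.8 CPM in the WT libraries (-1.17 ± 0.06, adjusted p = 2.1e-10 in edgeR's test), and kept its call with WT replicate 1. The riser was Gabrb1 (0.25 ± 0.06), and its call, like those of Grm2, Grin2a and Gria3, ended with that library kept.

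Of 16 monoamine and acetylcholine receptor genes 9 fell and 1 rose, and 6 fell with WT replicate 1 kept. Htr2a, the serotonin 2A receptor, had 11.8, 11.5, 11.9 and 10.4 CPM in the 175QK772T libraries, against 26.2, 35.3 and 27.1 CPM in the WT libraries (-1.39 ± 0.08, adjusted p = 1.49e-09 in edgeR's test). The muscarinic receptor genes Chrm3 (-1.04 ± 0.06) and Chrm1 (-0.58 ± 0.06) fell, and the nicotinic subunit gene Chrnb2 rose (0.29 ± 0.05). Of these, Htr2a was the 1 that was called with WT replicate 1 kept.

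Glial genes fell in 3 of the 4 lists of glial cell markers. All 12 oligodendrocyte and myelin genes fell, with a median of -0.47, and 4 did with WT replicate 1 kept (median -0.83). Mbp, myelin basic protein, had 2228, 1918, 1969 and 1873 CPM in the 175QK772T libraries, against 2733, 2931 and 2417 CPM in the WT libraries (-0.45 ± 0.06, adjusted p = 5.78e-05 in edgeR's test). Cldn11, the tight junction protein of myelin, had 86.5, 75.2, 80.5 and 73.1 CPM in the 175QK772T libraries, against 122, 120.1 and 98.7 CPM in the WT libraries (-0.53 ± 0.08), and Ugt8a, which makes the myelin lipid galactosylceramide, had 44.5, 38.7, 46.1 and 38.9 CPM in the 175QK772T libraries, against 65.6, 64.6 and 57.6 CPM in the WT libraries (-0.57 ± 0.08). In these genes each 175QK772T library was lower than each WT library, and the call of Mbp ended with WT replicate 1 kept. The summed level of the 12 ran from 4205 to 4836 CPM in 175QK772T and from 5464 to 6758 CPM in WT.

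Of 10 oligodendrocyte precursor markers 6 fell (2 with WT replicate 1 kept, 3 without WT replicate 3), among them Sox10, the lineage factor (-0.31 ± 0.06), Neu4 (-0.39 ± 0.09) and Gpr17 (-0.26 ± 0.06), the last a call that ended without WT replicate 3. Astrocyte markers fell in 10 of 12 cases and none rose (5 fell with WT replicate 1 kept), with a median of -0.30. Slc1a2, the main glutamate uptake carrier, had 2820.5, 3080.1, 3203 and 3172 CPM in the 175QK772T libraries, against 4068, 4348 and 4304 CPM in the WT libraries (-0.46 ± 0.05), and its partner Slc1a3 (-0.38 ± 0.05) and the bicarbonate carrier Slc4a4 (-0.42 ± 0.06) fell. The calls of Gpr17, Slc1a2 and Slc1a3 ended with WT replicate 1 kept. Of 10 reactive astrocyte genes 1 rose and 1 fell, 20% called beside 22.9% of all genes. Serpina3n, a secreted protease inhibitor, and Gfap, the astrocyte filament protein, had log2 fold changes of 0.80 ± 0.13 and -0.31 ± 0.09, and neither was called with WT replicate 1 kept. The groups of Gfap overlapped, and its call also ended without 175QK772T replicate 4, without WT replicate 3 (-0.16) or 4, and in DESeq2.

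None of the 12 microglia markers was called, and their median was -0.02. Of 10 genes of activated microglia 4 fell (1 with WT replicate 1 kept or WT replicate 3 left out, 2 without 175QK772T replicate 2 or 3), led by Lpl, lipoprotein lipase, with 11.3, 11.3, 9.09 and 11.6 CPM in the 175QK772T libraries, against 20.2, 20.4 and 18.5 CPM in the WT libraries (-0.89 ± 0.11), and neither Cd68 nor Axl kept its call without WT replicate 3 or with WT replicate 1 kept. The call of Axl ended also without 175QK772T replicate 2 or 3 or WT replicate 4. In vascular and barrier cells, 1 of 10 endothelial and 1 of 8 mural markers fell, 1 of 10 meningeal markers rose (none with WT replicate 1 kept), and no choroid plexus, ependymal or red blood cell gene was called. Of all genes 12.9% fell and 10% rose. Choroid plexus markers, a sign of where tissue was trimmed, summed to 110, 20.8, 35.6 and 10.5 CPM in 175QK772T and to 14.6, 44.4 and 12.3 CPM in WT.

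Markers of neighbouring regions were also read. Of striatal projection neuron markers 4 of 9 fell (median -0.32), of hippocampal markers 4 of 11 (median 0.19), and of thalamic markers 4 of 8 (median -0.32), with 1 thalamic marker that rose. When WT replicate 1 was kept 1, 3 and 2 of these fell and none rose. Ppp1r1b, the dopamine-regulated phosphatase inhibitor DARPP-32, which deep cortical neurons also express, had 28.8, 24.2, 24.3 and 24.7 CPM in the 175QK772T libraries, against 65.8, 73.3 and 71.9 CPM in the WT libraries (-1.46 ± 0.08). The striatal list summed to 151 to 180 CPM in 175QK772T and 211 to 276 CPM in WT. A part of striatal tissue in these falls was not tested.

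Genes of the circadian clock and its output were lower as a group: 11 of 15 fell and 1 rose, with a median of -0.62, and 8 fell with WT replicate 1 kept. Per3, a period gene, had 47.3, 42.2, 52.9 and 52.1 CPM in the 175QK772T libraries, against 94.97, 94.8 and 110.3 CPM in the WT libraries (-1.01 ± 0.06, adjusted p = 1.79e-09 in edgeR's test). The output factors Hlf (-0.91 ± 0.06) and Tef (-0.69 ± 0.05) fell in the same direction. Cry1, a cryptochrome, was the gene that rose, with 24.4, 24.9, 22.1 and 23.2 CPM in the 175QK772T libraries, against 16.5, 16.5 and 17.1 CPM in the WT libraries (0.50 ± 0.06). In Per3 and Cry1 the groups did not overlap, and all 4 genes kept their call with WT replicate 1. The hour of collection is not given in the labels.

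Immediate early genes, which neurons switch on with activity, varied between libraries of 1 genotype. Of 12, 3 fell (25% called, beside 22.9% of all genes), namely Homer1 (-1.01 ± 0.14), Arc (-1.30 ± 0.37) and Dusp1 (-0.64 ± 0.22), and none was called with WT replicate 1 kept. The count was 1 without 175QK772T replicate 3 or 4, without WT replicate 4 or with no sex term, and 7 without WT replicate 3 or with no filter on low counts. Arc had 215, 198, 68.2 and 54.7 CPM in the 175QK772T libraries, against 229.5, 174 and 326 CPM in the WT libraries. The 175QK772T replicates 1 and 2, both female, lay among the WT values and replicates 3 and 4, both male, well below them. The call of Arc ended without 175QK772T replicate 3 or 4 or WT replicate 4, and that of Dusp1 when any 1 of 4 of the 7 libraries was left out. With no sex term neither was called, and DESeq2 did not call Dusp1. Glucocorticoid-responsive genes fell in 5 of 10 cases (3 with WT replicate 1 kept, and 3 without 175QK772T replicate 4 or WT replicate 2), among them Zbtb16 (-0.70 ± 0.10), Cdkn1a (-0.84 ± 0.15) and Tsc22d3 (-0.37 ± 0.09).

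Heat shock genes split. Of 11 cytosolic ones 4 rose and 2 fell, and 1 rose and 2 fell with WT replicate 1 kept. Hsp90aa1, the inducible HSP90, had 995, 1048, 1041 and 991 CPM in the 175QK772T libraries, against 790.1, 747 and 697 CPM in the WT libraries (0.46 ± 0.05, adjusted p = 9.01e-07 in edgeR's test), and Hspa8, the constitutive HSP70, rose too (0.42 ± 0.04). The inducible HSP70 gene Hspa1b fell, with 2.98, 3.85, 2.16 and 2.59 CPM in the 175QK772T libraries, against 6.11, 8.65 and 6.58 CPM in the WT libraries (-1.36 ± 0.16), as did its near-identical neighbour Hspa1a (-0.42 ± 0.10), and counts may be split between these copies. The call of Hspa1a ended without WT replicate 3. The other risers were Hspe1 (0.24 ± 0.06) and Dnaja1 (0.15 ± 0.05), the second lost when any 1 of 5 of the 7 libraries was left out. The calls of Hspa8, Hspe1 and Dnaja1 ended with WT replicate 1 kept.

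Cholesterol synthesis genes fell in 11 of 14 cases and none rose (5 fell with WT replicate 1 kept, 6 without WT replicate 2 and 7 without WT replicate 3), by small amounts with a median of -0.21. Hmgcs1, the synthase of the first committed steps, had 265, 231, 283 and 266 CPM in the 175QK772T libraries, against 336, 324 and 308 CPM in the WT libraries (-0.29 ± 0.05), and Insig1, the sensor of the pathway, and Fdft1, squalene synthase, fell (-0.31 ± 0.06 and -0.26 ± 0.06). No ribosomal protein gene and no nuclear gene of the respiratory chain was called, of 14 each, while 4 of 13 mitochondrially encoded genes, 3 of 14 unfolded protein response genes and 1 of 14 interferon response genes fell, beside 12.9% of all genes. With WT replicate 1 kept these counts were none, 2 and none. Among the 179 tested genes within 10 Mb of Atxn1, 25 rose and 25 fell, 27.9% against 22.9% of all genes. Barx1 is among those that rose, and a part of its position in that rise was not tested. With WT replicate 1 kept 10 rose and 4 fell of 178, against 8.83% of all genes, a share below the background.

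A direct test set 175QK772T against 175Q, the mice with the same repeat and no K772T change, to ask what that change alters. It called 4738 genes (23.4%), 2602 higher (12.9%) and 2136 lower (10.6%). The same WT libraries serve both genotypes' contrasts with WT, so those contrasts are given side by side only: 175Q against WT called 9076 genes (44.8%).

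Scn4b had 35.4, 32.7, 29.8 and 29.3 CPM in 175QK772T, 13.4, 16.6, 13.6 and 15.9 CPM in 175Q and 117, 128 and 132 CPM in WT. The 175QK772T values lay between the others, and exceeded 175Q by 1.09 ± 0.08 on the log2 scale (adjusted p = 4.71e-08 in edgeR's test). Lamp5 lay between them as well, with 45.8, 40.6, 45.7 and 42.3 CPM in 175Q and a difference of 1.20 ± 0.06. Dusp6 exceeded its level in 175Q, 24.5, 21.7, 22.6 and 28.5 CPM, by 1.00 ± 0.10. In that direct test 11 of the 14 capicua targets, 10 of 12 astrocyte markers, 9 of 10 excitatory neuron genes and all 12 immediate early genes were higher in 175QK772T and none of these was lower.

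Other genes did not differ detectably from 175Q or lay further from WT. Of the 12 myelin genes 1 was higher in 175QK772T than in 175Q and none lower, and Mbp had 2228, 1918, 1969 and 1873 CPM in 175QK772T and 1952, 2269.7, 1977 and 2249.6 CPM in 175Q (-0.08 ± 0.06, adjusted p = 0.359 in edgeR's test). Of the 15 circadian genes 2 were higher and 5 lower than in 175Q. Per3 was lower in 175QK772T than in 175Q by -0.43 ± 0.06 on the log2 scale, with 72.8, 70.9, 56.99 and 61.4 CPM in 175Q and 94.97, 94.8 and 110.3 CPM in WT. Onecut2 (-0.02 ± 0.09), Penk (0.16 ± 0.07) and Hsp90aa1 (-0.09 ± 0.04) did not pass against 175Q. For the developmental factors the direct test gave lower values in 175QK772T for 15 of 24 Hox genes, Barx1 (-0.37 ± 0.09), Pou4f1 (-0.67 ± 0.08) and Tal1 (-0.46 ± 0.06).

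**Figure D4:**
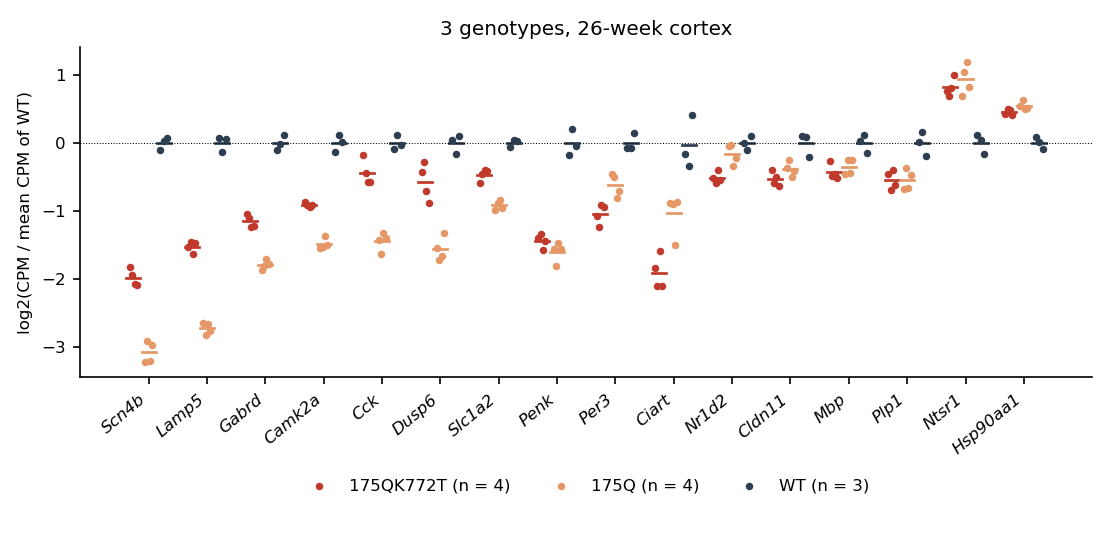
Level of 16 genes in each library as log2 of CPM over the mean CPM of WT, in the order 175QK772T, 175Q, WT. Scn4b, Lamp5 and Gabrd of 175QK772T lie between the other genotypes, Per3 lies furthest from WT in 175QK772T, and Mbp and Ntsr1 overlap between 175QK772T and 175Q.

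The 10-week cortex gave the same contrast in other mice, 4 175QK772T (3 females and 1 male) and 4 WT (2 of each sex), with 78873793 to 100754106 counts per library in 175QK772T and 84317481 to 88227337 in WT. There 5362 of 20748 genes (25.8%) were called, 11.8% higher and 14% lower. Of the 26-week risers tested at both ages, 1909 of 1972 (96.8%) were also above 0 at 10 weeks and 1320 of them rose, with 1 called in the opposite direction. Of the genes that fell, 2514 of 2610 (96.3%) were below 0 at 10 weeks and 1897 fell. Choroid plexus markers stood higher there in 9 of 11 cases (median 2.31), with sums of 13.8, 11.6, 28.2 and 826 CPM in 175QK772T and 9.36, 21.3, 6.67 and 5.83 CPM in WT. Replicate 4 of 175QK772T stood far above the rest, and its part in the values at 10 weeks was not tested. Over all genes tested at both ages the share with the same sign was 75.1%.

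A direct test of the change of effect between ages called 19 of 22084 genes (0.086%), 10 with a higher (0.0453%) and 9 with a lower log2 fold change (0.0408%) at 26 weeks. Ages were prepared and sequenced as separate batches and counted in separate tables, so age, batch and counting cannot be told apart. The strand and mapping quality settings of the 26-week counting are not given, which leaves overlapping and antisense genes uncertain. En2, the engrailed factor of the midbrain and cerebellum, rose by 3.74 ± 0.19 at 26 weeks and by 1.06 ± 0.17 at 10 weeks on the log2 scale, a difference of 2.59 ± 0.29 (adjusted p = 0.000495 in edgeR's test). Dlx4, a distal-less homeobox factor, rose by 3.23 ± 0.18 and 1.02 ± 0.21, and Tal1 by 3.94 ± 0.09 and 2.58 ± 0.11, each more at 26 weeks. The clock factors Nr1d2 (-0.48 ± 0.05 at 26 weeks, -0.10 ± 0.04 at 10 weeks) and Hlf (-0.91 ± 0.06 and -0.43 ± 0.05) were further below WT at 26 weeks.

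Gpr153, an orphan receptor, and Myh7, a myosin heavy chain, went the other way. Both fell at both ages, with log2 fold changes of -1.59 ± 0.10 at 26 weeks and -2.50 ± 0.07 at 10 weeks in Gpr153 and of -1.64 ± 0.15 and -2.75 ± 0.09 in Myh7, so the older cortex was nearer to WT. These genes, the only ones among those named that passed this test, were named after their values were seen, save Hlf, which its list named. The count fell to 2 with WT replicate 1 kept, and was 10 without 175QK772T replicate 4, 11 without replicate 2 and 32 without replicate 3. Myelin genes, of which 12 of 12 fell at 26 weeks, had none of 12 called at 10 weeks (median -0.10), but no named myelin gene passed the test of the change itself.

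**Figure D5:**
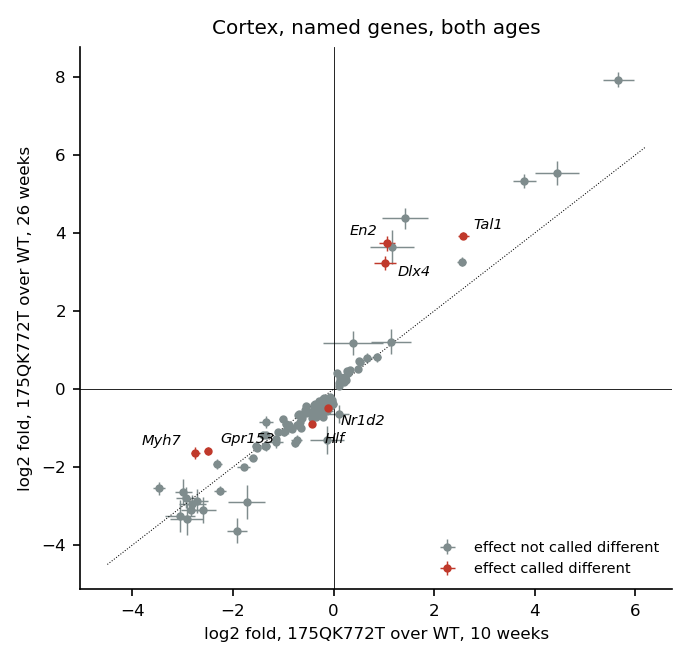
Log2 fold change of 175QK772T over WT ± SE in the 10-week cortex (x axis) and the 26-week cortex (y axis) for 118 named genes, with the line of equal effects. The 7 genes in red, En2, Dlx4, Tal1, Nr1d2, Hlf, Gpr153 and Myh7, passed the test of the change between ages.

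The same mice also gave hippocampus and striatum, so these values share animals with the cortex, and the test of the change of effect between regions, with the mouse as a block, called 269 of 21046 genes (1.28%) between cortex and hippocampus and 921 (4.38%) between cortex and striatum. With WT replicate 1 of the cortex kept the counts were 130 and 561, and leaving out any 1 cortex library gave 124 to 236 and 416 to 908. In each of the other regions alone 3765 (19%) and 4600 genes (23.4%) were called. Of the 26-week cortical risers 90.6% were above 0 in hippocampus and 88.2% in striatum, and of the falls 85.1% and 82.6% were below 0, beside 68.6% and 69.1% of all genes with the same sign.

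Hrh3, the presynaptic histamine receptor, had 27.7, 21.1, 23.4 and 23.8 CPM in the 175QK772T libraries, against 75.4, 84.7 and 81.5 CPM in the WT libraries in the cortex. Its log2 fold change was -1.77 ± 0.07 there and -0.24 ± 0.10 in the hippocampus, a difference of -1.50 ± 0.13 (adjusted p = 3.77e-05 in edgeR's test). Stxbp6, a regulator of vesicle fusion, was the reverse case, at -0.22 ± 0.06 in cortex and -1.34 ± 0.05 in hippocampus, and its cortical call ended without WT replicate 3. Onecut2 had a log2 fold change of 3.26 ± 0.12 in cortex, against 2.05 ± 0.05 in hippocampus and 0.76 ± 0.16 in striatum, and both differences passed.

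Against striatum, Scn4b was nearer to WT in cortex (-2.00 ± 0.08, against -3.69 ± 0.17 in striatum), and so were Penk (-1.46 ± 0.07, against -2.66 ± 0.22) and Fbxl16, an F-box protein (-0.39 ± 0.05, against -1.33 ± 0.09). Lamp5 was further below WT in cortex (-1.52 ± 0.06, against -0.65 ± 0.12), and so were Etv1 (-0.71 ± 0.06, against -0.17 ± 0.09) and Ankrd63 (-2.61 ± 0.12, against -1.18 ± 0.18). Striatal projection neuron markers, 4 of 9 lower in cortex, were all 9 lower in striatum, where 12.4% of all genes were, with medians of -0.32 and -2.07. Hrh3, Stxbp6 and Fbxl16 were named after their values were seen, and the cortical calls of Stxbp6 and Fbxl16 ended with WT replicate 1 kept.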

How the data were processed

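The authors deposited 1 table for each age, with whole-number counts of read pairs for each gene and no normalization. Per the submitters' processing notes, bcl2fastq 2.20.0, Trimmomatic 0.33, HISAT2 2.1.0 and featureCounts of Subread 1.6.2 were used with GRCm38. The 10-week counting used strand and a mapping quality limit, per the file headers. For the 26-week counting these settings are not given in the sources used here, so values of overlapping, antisense and near-identical genes are uncertain.

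From the counts, filterByExpr with the 3 genotypes as groups chose the genes, TMM gave the scaling, and the test was the quasi-likelihood test of edgeR 4.0.16 in R 4.3.3, with terms for genotype and sex. The fit held 11 libraries, 4 of 175QK772T, 4 of 175Q and 3 of WT, so that all share 1 estimate of the spread. P-values were adjusted by Benjamini-Hochberg over all genes tested, and calls were made below 0.05. Changes of effect were interaction terms, over 15 cortex libraries for age and 23 libraries for region. The pipeline was tested on simulated data with the same spread for all genes and changes only in well-counted genes. Genes silent in a group and differences between mice were not covered. Alternatives were RLE scaling, DESeq2 1.42.0, no filter, no sex term, 7 libraries only, a replicate block, WT replicate 1 kept and each library left out in turn. Within a region and age each library is from a separate mouse per the labels, so p-values measure the spread between mice of 1 group.

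Members and lists were chosen with earlier results of these data known. Named genes were Atxn1, the 12 largest rises and 12 largest falls among calls whose groups did not overlap and whose mean over the 7 libraries reached 1 CPM (no chromosome Y genes, Xist, Tsix or unnamed gene models), and up to 4 called members per list by smallest p. Named after their values were seen were 28 more: Tal1, Camk2n1, En2, Gpr153, Nr1d2, Dlx4, Myh7, Ntsr1, Dlx1, Cry1, Nts, Adcyap1, Gabrb1, Chrnb2, Scn2a, Cacna1b, Hspe1, Dnaja1, Hspa1a, Serpina3n, Gfap, Ppp1r1b, Hrh3, Stxbp6, Fbxl16, Dusp6, Spry2 and Spred3. Promoter sequences are from RefSeq. Some genes that this rule names are not reported here.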

Additional observations from a re-analysis of the deposited data

Results flagged for a closer look

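In 4 of the 124 named genes looked at, 1 library of 175QK772T stood apart from the other 3 by Dixon's criterion. Chance meets that criterion in about 1 of 20 groups, a larger share than was found. They were Lpl in replicate 3 (9.09 CPM), Cacna1i in replicate 2 (102 CPM), Nts in replicate 2 (0.935 CPM) and Ppp1r1b in replicate 1 (28.8 CPM). In none of the 4 did the value reach the WT range.

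Between ages, the log2 effect of 175QK772T against WT changed in 7 named genes, given as 26 minus 10 weeks. It was higher at 26 weeks in En2 (2.59), Dlx4 (2.2), Tal1 (1.29), Myh7 (1.07) and Gpr153 (0.91), and lower in Hlf (-0.49) and Nr1d2 (-0.40). Here and below, a higher log2 effect can be a larger rise or a smaller fall, and a lower one a smaller rise or a larger fall.

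Between cortex and hippocampus, the log2 effect was higher in cortex in Lhx1 (6.72), Shox2 (5.74), Pou4f1 (4.79), En2 (2.37), Onecut2 (1.18) and Stxbp6 (1.07). For Lhx1 and Shox2 the fitted values rest on 3 counts or fewer in the cortex of WT, so their size is uncertain. It was lower in cortex in Olfr78 (-2.54), Cd6 (-2.36), Hrh3 (-1.50), Myh7 (-1.08), Gpr153 (-1.07), Homer1 (-0.68) and Etv1 (-0.42).

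Between cortex and striatum, the log2 effect was higher in cortex in Onecut2 (2.45), En2 (2.11), Tal1 (1.79), Scn4b (1.71), Penk (1.22), Fbxl16 (0.96), Gabrd (0.56), Spry2 (0.51), Scn3a (0.50) and Baiap2 (0.45). It was lower in cortex in H2-Bl (-3.63), Ankrd63 (-1.43), Hspa1b (-1.21), Lamp5 (-0.87), Gpr153 (-0.69), Gabra5 (-0.63), Etv1 (-0.57), Stxbp6 (-0.50) and Nlk (-0.44). Scn4b, Penk, Fbxl16, Gabrd, Spry2 and Baiap2 fell in cortex, so their higher log2 effect there is a smaller fall than in striatum.

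WT replicate 1 of the 26-week cortex, which the comparison leaves out, held 601 CPM of hindbrain markers and 248 CPM of Hox genes in sum. The other WT libraries had at most 0.326 and 0.387 CPM.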

How the results depend on the processing

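The 4641 calls were within 1.5 times of that count with RLE scaling, DESeq2, no filter, no sex term and the 7 libraries alone. The same held with each of the 7 libraries left out in turn (3524 to 4336 calls). The calls were 1756 with WT replicate 1 kept and 761 with it kept in a fit of 8 libraries. A limit of 2-fold, chosen after seeing the data like the fit of 8 libraries, left 621. With a replicate block there were 4565 calls, and the block changed no call of a named gene. Replicate numbers share only a number here, with correlations of same-numbered libraries of -0.02, -0.16 and 0.05. Of 127 named genes that were called 57 lost their call with WT replicate 1 kept, 67 kept it and 3 turned in sign: Hoxb5 (-2.39, and -1.35 in the fit of 8 libraries), Slc6a5 (-4.70 and -3.66) and Nts (-0.76 and -0.54). Leaving out 1 library ended at most 9 of these calls. The cause was not tested.

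The 19 changes between ages were 2 with WT replicate 1 kept, 32 with no sex term and 10 to 32 with 1 library left out (10 without 175QK772T replicate 4, 11 without replicate 2, 32 without replicate 3). Changes against hippocampus, 269, were 130 with WT replicate 1 kept and 124 to 236 with 1 cortex library left out. Against striatum, 921, they were 561 and 416 to 908. The shallower 175QK772T libraries limit what can be seen in genes of few counts.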
